A study of Bos taurus with 25 samples.

Results

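The genes described here are complement components and regulators measured in the liver and the mammary gland of lactating cows given vitamins B9 and B12. The members named were C1R and C1S, the serine proteases of the first component, C3, CFB and CFI of the central step and its control, and C5, C6, C7 and C9 of the terminal pathway. A member's probes were all probes other than controls whose transcript name on the array was paired with its symbol in RefSeq (names of assembly ARS-UCD2.0). This gave 33 of the 43653 probes of the array and 8 of the 9 members, out of 11068 different gene symbols. C1R was paired with no probe and is not analysed here. C3 had 10 probes, C5 had 5, CFB and CFI had 4 each, C1S, C6 and C9 had 3 each, and C7 had 1. Each gene is described by its brightest probe in the tissue unless another probe is named.

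Complement is a cascade of plasma proteins that tags microbes and damaged cells, recruits leukocytes and opens pores in membranes. The classical pathway starts with C1, in which C1R cleaves C1S and C1S then cleaves C4 and C2. All pathways meet at C3, whose fragment C3b binds to surfaces. In the alternative pathway, CFB binds C3b and forms the enzyme that cleaves more C3, while CFI cuts C3b and stops this amplification. Cleavage of C5 starts the terminal pathway, in which C5b collects C6, C7, C8 and C9 into a pore. Hepatocytes make most of these proteins for plasma, while other cells, macrophages and connective tissue cells among them, also make some components locally.

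The samples were biopsies of whole tissue from Holstein cows, taken 64 ± 3 days after calving. Every cow received weekly intramuscular injections of 5 mL that held saline (control), 320 mg of folic acid (B9), 10 mg of cyanocobalamin (B12), or both vitamins (B9 + B12). Of 25 arrays with 1 colour, 12 were from liver (3 control, 3 B9, 4 B12 and 2 B9 + B12) and 13 from mammary gland (3 control, 3 B9, 4 B12 and 3 B9 + B12). They came from 13 cows, of which 12 gave both tissues, and each array held the RNA of 1 cow. Because a biopsy holds several cell types, fewer cells of a type and less RNA per cell cannot be told apart.

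Values are log2 intensities after background correction and quantile normalization, so that a difference of 1 is 2-fold. Between 71.2% and 84.2% of the probes were well above background on the liver arrays and between 64.4% and 76.5% on the mammary arrays. The 7 hepatocyte markers measured averaged 17.2 to 17.5 in liver and 7.25 to 8.99 in mammary gland, and the 5 markers of milk secreting cells averaged 6.84 to 9.70 and 17.8 to 17.9. The liver arrays of cow 57 (B9) and cow 32 (B9 + B12) stood apart, with a median correlation to the other liver arrays of 0.972 and 0.973 against 0.989 to 0.992 for the other 10. Signal over background was lowest on the 3 liver arrays of 1 slide, which were scanned on a later day than the other 9, at 2.30 for cow 32, 3.23 for cow 37 (B12) and 3.58 for cow 43 (control) against 5.33 to 10.47 on the rest. Among the mammary arrays, that of cow 57 had the highest hepatocyte markers, with albumin (ALB) at 10.56 against 6.06 to 7.92 on the other 12. The differences that the arrays of cows 57 and 32 moved most are given with and without them.

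All 8 complement genes measured were higher in liver than in mammary gland, by 2.14-fold for C7 to 498-fold for CFB on the values as measured. Each was called, which here means 2-fold or more with an adjusted p at or under 0.05 (limma, Benjamini-Hochberg over all probes), as did 8.80% of all probes in the same direction and 9.89% in the other. All 33 probes of the 8 genes were higher in liver. Here both tissues were normalized together, which gives other levels than within a tissue.

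C1S was at 16.82 ± 0.17 (SD, n = 12) in liver and at 11.62 ± 0.33 (n = 13) in mammary gland, a difference of 5.26 ± 0.09 (SE, limma adjusted p = 5.77e-21). C3 had the smaller gap of 3.21 ± 0.10 on its brightest probe (adjusted p = 3.32e-16), from 18.72 ± 0.11 in liver to 15.52 ± 0.33 in mammary gland. The gap ranged up to 4.06 on its other probes. That C3 probe was among the brightest of the whole array in liver, with 5 probes above it, and none of the spots was called saturated.

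For the alternative pathway, CFB was at 18.57 ± 0.05 in liver and at 9.61 ± 0.69 in mammary gland, a gap of 8.96 ± 0.20 and the widest of the 6 genes whose brightest probe was above background on all arrays of both tissues (adjusted p = 8.61e-19). Its 4 probes differed by 7.22 to 8.96. CFI, the protease that limits it, differed by 8.19 ± 0.26, with 4 probes between 6.15 and 8.19. Both genes stood above background on all 13 mammary arrays.

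The terminal genes divided into those near background in the mammary gland and those above it. C5 differed by 7.93 ± 0.12 and C9 by 8.40 ± 0.12, but their probes were well above background on 1 and 2 of the 13 mammary arrays, so that the background limits both differences. They ranged from 1.21 to 7.93 over the 5 C5 probes and from 6.33 to 8.40 over the 3 C9 probes. C6, which binds C5b first, differed by 8.03 ± 0.15 and was above background on all 13 mammary arrays with its brightest probe. Of its other probes, 1 was above background on 9 mammary arrays and 1 on none.

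C7, which anchors the growing complex in the membrane, was the exception in size. It was at 9.57 ± 0.57 in liver and 8.55 ± 0.29 in mammary gland, a difference of 1.10 ± 0.16 (adjusted p = 3.27e-06). Within cows the difference ran from −0.11 in cow 40 to 2.05 in cow 32, and 11 of 12 cows had the higher value in liver. For each of the other 7 genes, all 12 cows had the higher value in liver, and the lowest difference within a cow was 2.43, for C3.

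**Figure D1:**
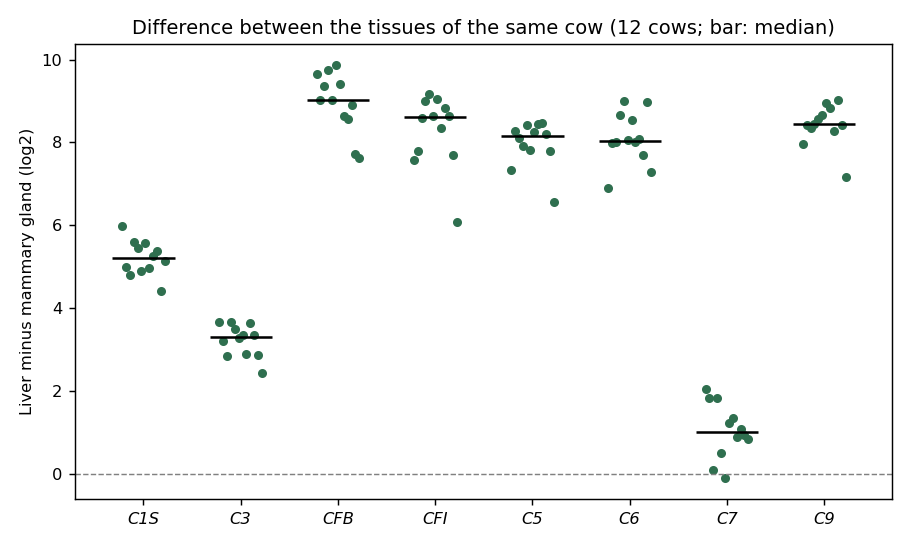
Difference between liver and mammary gland of the same cow (log2, vertical axis) for the 8 complement genes, with 1 point per cow (12 cows) and a bar at the median. CFB has a median of 9.03, C7 a median of 1.01, and the only point under 0 is a cow's C7 value of −0.11.

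Of the 35 other genes of the pathway listed, 31 were measured, and 20 were higher and 1 lower in liver by the same threshold. The 5 differences with the highest measured values were those of VTN, a plasma inhibitor of the pore (11.30), C8B (9.14) and C8A (8.82) of the terminal complex, C4BPA, a regulator of C4b (7.95), and MBL1, a lectin that starts the lectin pathway (7.06). Their probes were well above background on 4, 9, 6, 11 and 0 of the 13 mammary arrays, so that the background limits these differences too and their order is not settled. CD46, a regulator on the surface of most cells, was the one gene lower in liver (−1.60). The 4 others at the low end were the lectin MBL2 (−0.11, adjusted p = 0.544), the C5a receptors C5AR2 (−0.03, adjusted p = 0.407) and C5AR1 (0.13) and the surface regulator CD55 (0.28), whose brightest probes did not reach 2-fold. The 3 MBL2 probes disagreed, from −0.11 to 7.14, and 2 of them were called. C5AR2 was well above background on 1 array of each tissue, and C5AR1 on 2 mammary arrays.

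In liver, no complement gene passed the threshold in any vitamin group. Over all probes, 0% were called for B9, 0.00229% for B12 and 0% for B9 + B12, and limma adjusted p-values of the 8 genes were between 0.687 and 1.00. Unadjusted p-values under 0.05 were found for 0, 1 and 1 of the 8 genes (3.54%, 2.12% and 5.72% of all probes), and Cyber-T, a test that pools the spread of probes of like intensity, called none of the 8 either (0.0115%, 0.0985% and 0.0504% of all probes). All 3 comparisons share the 3 control arrays. The values below describe the direction of differences that did not pass the test.

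With B12, all 8 genes and all 33 of their probes averaged below the control group, while 49.7% of all probes did. The median over the 8 genes was −0.23, against 0.00073 for all probes. Probes of 1 gene measure the same RNA and are not independent. For 4 of the 8 genes (C1S, CFB, CFI and C5), all 4 B12 arrays were below all 3 control arrays, which was so for 2.56% of all probes. With B9, all 8 genes averaged below control (46.6% of all probes) and 2 of them (CFI and C7) were wholly below (4.14% of all probes). With B9 + B12, 6 averaged below (45.8% of all probes), with CFI and C5 wholly below (9.81% of all probes) and C1S and C7 wholly above (12.0%). Directions depended on the scaling for B9 and B9 + B12: with each array scaled by its 75th percentile in place of quantiles, 4, 8 and 4 of the 8 genes were below control for B9, B12 and B9 + B12, while the median of all probes was 0.11, −0.083 and 0.27. From the processed signal scaled that way, 4, 7 and 3 were below.

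CFI measured 17.38, 17.10 and 16.95 in the control cows, and 16.93, 16.87 and 15.88 in the B9 cows. It measured 16.33, 16.91, 16.84 and 16.84 in the B12 cows, and 15.30 and 16.90 in the B9 + B12 cows. On this probe, the brightest, the arrays of each vitamin group were below the lowest control array (4.14%, 2.56% and 9.81% of all probes for B9, B12 and B9 + B12). Of the 9 arrays, 6 lay between 16.84 and 16.93, and those of cows 32, 57 and 36 were far lower.

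For B9, B12 and B9 + B12 in turn, CFI differed from control by −0.58 ± 0.40 (SE), −0.42 ± 0.37 and −1.05 ± 0.44. Exact permutation tests (two-sided) gave p = 0.1, 0.0571 and 0.1, and the smallest p these group sizes allow is 0.1, 0.0286 and 0.1. All 4 CFI probes were lower in all 3 comparisons, but on the other 3 each vitamin group overlapped control. Without the liver array of cow 57 the B9 difference was −0.25, and without that of cow 32 the B9 + B12 difference was −0.24, for which the lone array left was assumed to vary like the other groups. Entering the slide as a fixed block turned the B12 difference to 0.021 and gave −1.84 with B9 and −1.17 with B9 + B12. The same block gave −1.39 for C5, −0.76 for C6 and −0.64 for C9 with B9, and none of these was called. In liver, 1 slide held both a control and a B9 array, the latter that of cow 57. On the slides that held both control and vitamin arrays it was −0.11 and −0.19 with B12, −1.50 with B9 and −0.48 and −1.80 with B9 + B12, from 1 array a group.

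C5 measured 15.39, 15.43 and 15.25 in the control cows and 15.21, 15.09, 14.85 and 14.79 in the B12 cows, which did not overlap on this and 2 of the 4 other C5 probes (2.56% of all probes were wholly below control). The B9 cows were at 15.40, 15.25 and 14.18 and the B9 + B12 cows at 14.37 and 14.98. The difference was −0.37 ± 0.27 with B12 (exact permutation p = 0.0571; −0.39 and −0.34 within slides), −0.41 ± 0.29 with B9 and −0.68 ± 0.33 with B9 + B12. Without cow 57 the B9 difference was −0.03, and without cow 32 the B9 + B12 difference was −0.37. Over the 5 C5 probes the differences ranged from −0.42 to 0.070 for B9, from −0.57 to −0.34 for B12 and from −0.68 to −0.0013 for B9 + B12. The lowest values of C5, C6, C9 and CFI in liver were all on the arrays of cows 57 and 32.

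C1S, which differed little between cows, measured 17.57, 17.53 and 17.52 in control and 17.24, 17.33, 17.39 and 17.38 with B12. The B12 group was lower by a mean of −0.21 ± 0.08 (unadjusted p = 0.0221, limma adjusted p = 1.00, exact permutation p = 0.0286, the smallest possible), and within slides by −0.12 and −0.21. The B9 + B12 cows were at 17.67 and 17.64, both above control, as were 12.0% of all probes. The B9 cows at 17.31, 17.56 and 17.59 lay on both sides. Over the 3 C1S probes, the differences with B12 were between −0.21 and −0.07, and those with B9 + B12 between −0.20 and 0.17.

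C3 and CFB were at the top of the intensity range in liver. The brightest C3 probe measured 18.83, 19.01 and 19.01 in control, 18.86, 18.97 and 18.68 with B9, 18.76, 18.86, 18.94 and 18.83 with B12, and 18.90 and 18.83 with B9 + B12. Groups overlapped throughout, and the differences were −0.11, −0.10 and −0.08, the first of which was −0.036 without cow 57.

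All 10 C3 probes averaged below control in each of the 3 comparisons, and with B12 the 9 dimmer ones all had larger differences than the brightest, of up to −0.67. With B9 + B12 the differences ranged from −0.54 to −0.045, and 1 of the dimmer probes differed less than the brightest. The probe with −0.67, the dimmest for C3 in liver, measured 12.48, 12.76 and 12.96 in control and 11.64, 12.12, 12.31 and 12.20 with B12, without overlap (−0.67 ± 0.19, unadjusted p = 0.00616, limma adjusted p = 1.00). It was 12.33, 12.44 and 12.03 with B9 (−0.47 ± 0.20) and 12.67 and 12.19 with B9 + B12 (−0.31 ± 0.23). For B9, B12 and B9 + B12, 2, 4 and 5 of the 10 C3 probes were wholly below control (4.14%, 2.56% and 9.81% of all probes). The SD over 12 arrays was 0.10 for the brightest and 0.35 for the dimmest.

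CFB measured 18.80, 18.79 and 18.75 in control and 18.65, 18.65, 18.73 and 18.73 with B12, a gap of −0.09 ± 0.05 between groups that did not overlap (exact permutation p = 0.0857). The differences with B9 and with B9 + B12 were −0.07 ± 0.06 (−0.033 without cow 57) and −0.04 ± 0.06. Of the 4 CFB probes, 2 were wholly below control with B12 (2.56% of all probes). On its dimmest probe the B12 difference was −0.25. The sign of CFB depended on the scaling: when the processed signal was divided by each array's 75th percentile, it was 0.24, 0.074 and 0.53 for B9, B12 and B9 + B12.

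**Figure D2:**
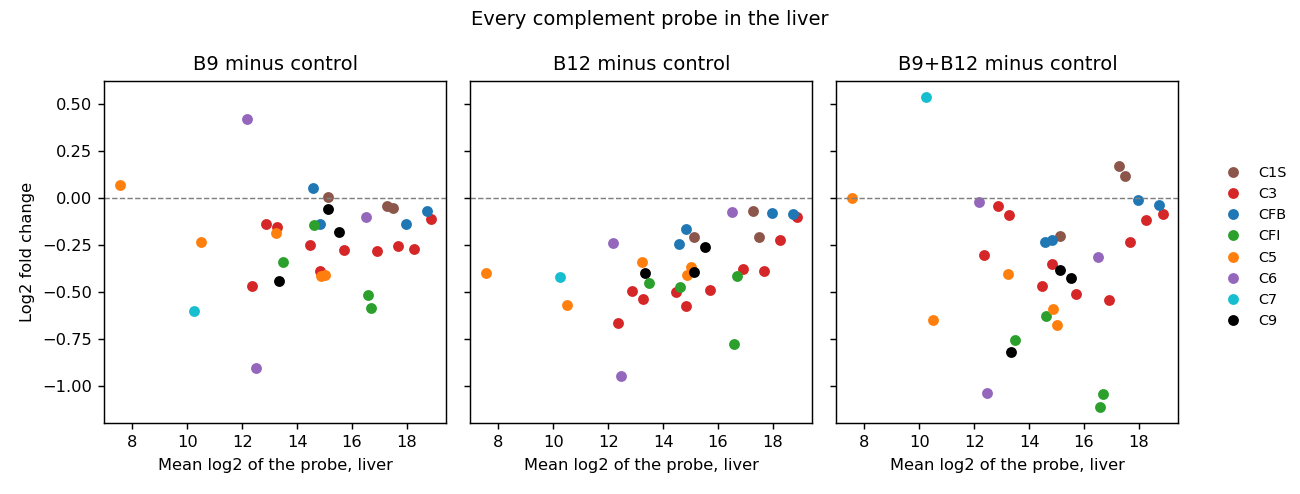
Log2 fold change of every complement probe in liver (vertical axis) against the mean log2 intensity of the probe over 12 liver arrays (horizontal axis), by vitamin group, with 1 point per probe coloured by gene. All 33 points are below 0 with B12, and there the points of C3 near the top of the range are closer to 0 than its dimmer probes.

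C6 and C9 overlapped between control and each vitamin group on their brightest probes. C6 measured 16.48 to 16.67 in control and 15.90 to 16.85 in the vitamin groups, with differences of −0.10, −0.08 and −0.32. Without cow 57 the B9 difference was 0.11, and without cow 32 the B9 + B12 difference was 0.067. Its probes disagreed in size: on 1 of the 2 dimmer ones the 3 differences were −0.90, −0.95 and −1.04 (unadjusted p of 0.0182, 0.0101 and 0.0160, limma adjusted p of at least 0.687), and on the other 0.42, −0.24 and −0.02. On the first of these, control cows were at 13.38, 12.79 and 13.42, B12 cows at 12.25, 12.31, 12.59 and 11.85, B9 cows at 12.11, 12.86 and 11.91, and B9 + B12 cows at 12.62 and 11.70. The B12 and the B9 + B12 arrays were wholly below control there (2.56% and 9.81% of all probes), while 1 B9 array (cow 41) was not. On the other dimmer probe the B9 arrays were wholly above control, as were 4.31% of all probes. C9 differed by −0.18, −0.26 and −0.43, and by −0.042 with B9 without cow 57 and −0.18 with B9 + B12 without cow 32. Leaving out other single arrays took it as low as −0.34, −0.41 and −0.68. With B12 it rose to at most −0.18 that way, and was −0.095 with the slide as a fixed block. On another C9 probe the 3 differences were −0.44, −0.40 and −0.82, the last wholly below control, and on the third probe −0.06, −0.39 and −0.38.

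C7 had the highest SD of the 8 genes over the 12 liver arrays (0.62). It measured 10.88, 10.24 and 10.23 in control, 9.49, 9.89 and 10.17 with B9, 11.14, 9.57, 9.50 and 9.89 with B12, and 10.91 and 11.07 with B9 + B12. The B9 arrays were below control, as were 4.14% of all probes (−0.60 ± 0.40, exact permutation p = 0.1, and −0.39 without control cow 42). The B9 + B12 arrays were above, as were 12.0% of all probes (0.54 ± 0.44, exact permutation p = 0.2). B12 cows lay on both sides (−0.42 ± 0.37, −0.80 without cow 36, −0.21 without control cow 42, and −0.76 with the slide as a fixed block). Within slides C7 differed by −0.71 with B9, by −0.73 and −0.67 with B12, and by 0.19 and 0.67 with B9 + B12. The 5 stroma markers measured averaged 10.34 to 10.93 in control, 10.36 to 10.45 with B9, 10.20 to 10.60 with B12 and 10.51 to 10.88 with B9 + B12, and their part in the C7 values was not tested.

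**Figure D3:**
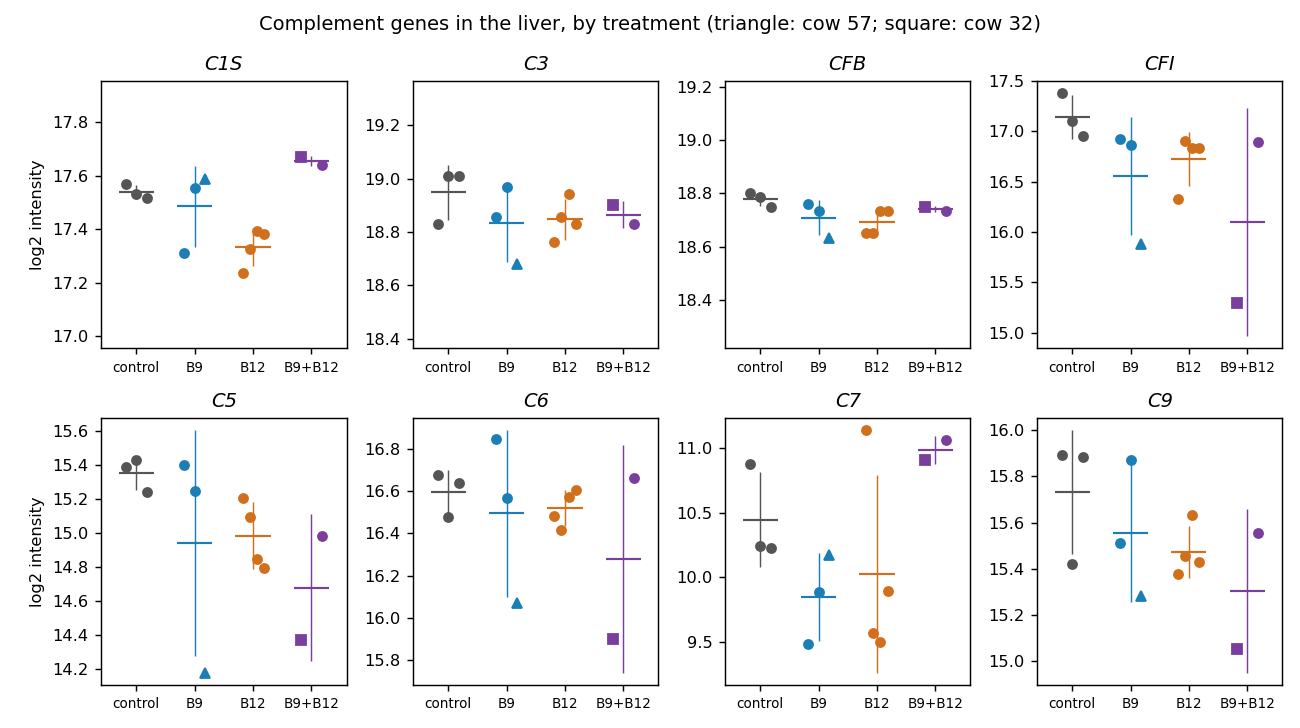
Log2 intensity (vertical axes, each of at least 1 unit) of the brightest probe of 8 complement genes on 12 liver arrays by treatment, with 1 point per cow, a bar at the mean and a line of ± 1 SD. In each vitamin group the CFI arrays lie under the 3 control arrays, and cows 57 (triangle) and 32 (square) hold the lowest values of CFI, C5, C6 and C9.

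Levels of other gene lists in liver are given beside these values, as means over the genes of a list on each array. The 10 interferon-induced genes measured averaged 10.6 to 11.8 on the B12 arrays and 9.87 to 10.1 on the control arrays. Among them IFI6, named here after its values were seen, was called with B12 (3.73 ± 0.31, limma adjusted p = 0.0158) and was the 1 probe called in that comparison. The 5 milk secretion markers averaged 7.14 to 7.33 in control, 7.48 to 8.74 with B9, 6.84 to 9.70 with B12 and 7.68 to 7.91 with B9 + B12, and none of them was called. They were highest in cows 36 and 37, with the casein CSN1S1 at 11.73 and 11.35. The 7 acute-phase genes measured, of which none was called, averaged 16.99 to 17.35 in control, 17.09 to 17.46 with B9 and 16.3 to 17.2 with B12. Taken singly, all 7 were below control with B12 (median −0.16) and B9 + B12 (median −0.50), and 3 with B9. The shares of all probes below control were 49.7%, 45.8% and 46.6%. With B9 + B12 the acute-phase genes averaged 16.64 and 16.65, below all control arrays, as were 9.81% of single probes. The 5 lymphocyte markers averaged 9.98 and 10.20, above the 8.99 to 9.91 of control, as were 12.0% of single probes, with none called. The part of these signals in the complement values was not tested.

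Of the 31 other pathway genes measured, none was called in liver in any comparison. For B9, B12 and B9 + B12 the medians were −0.10, −0.08 and −0.03, and 22, 24 and 17 of the 31 were below 0. With B9 the lowest were C8A (−0.65), C4BPA (−0.60) and C4BPB (−0.41), and the highest were the carboxypeptidase CPN1 (0.36), C1QA (0.07) and factor D, CFD (0.07). With B12 the lowest were CD46 (−0.47), C4BPA (−0.44) and C4BPB (−0.42), and the highest FCN1, a ficolin of myeloid cells (0.54), MASP1 (0.19) and C5AR1 (0.13). With B9 + B12, C4BPB (−0.75) and C4BPA (−0.69) were among the lowest, and the highest were FCN1 (1.39), VSIG4, a complement receptor of macrophages (0.65), and CFD (0.52). All of these had limma adjusted p-values of at least 0.687.

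In the mammary gland, no complement gene was called either (0% of all probes in each of the 3 comparisons). The limma adjusted p-values all rounded to 1.00, and differences of the 6 genes above background on all arrays were between −0.72 and 0.16. Unadjusted limma p-values under 0.05 were found for none of the 8 genes (2.55%, 2.28% and 1.95% of all probes for B9, B12 and B9 + B12), and Cyber-T called none of them (0.0115%, 0.0229% and 0.0137%). Here too the 3 comparisons share the 3 control arrays.

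CFB varied most among the genes, over a range of 1.99. It measured 9.35, 9.38 and 9.04 in control and 8.999, 8.37 and 8.25 with B9 + B12, all 3 below control (−0.72 ± 0.49, exact permutation p = 0.1, the smallest possible). It was the 1 of 8 genes wholly below control in this comparison, as were 3.46% of all probes. All 4 CFB probes were lower, by −0.72 to −0.11, but the other 3 overlapped control, and the difference within the 3 slides that held both groups was −1.01, −0.79 and −0.35. The B12 cows were at 8.86, 8.55, 8.14 and 10.12, and the B9 cows at 8.94, 8.57 and 10.14. Both groups had 1 array far above control (cow 52 and cow 57) and all others below it. Without cow 52 the B12 difference moved from −0.34 to −0.74, and without cow 57 the B9 difference moved from −0.04 to −0.50. With the slide as a fixed block these 2 differences were −0.072 and 0.41. Within slides CFB differed by 0.73 and −0.90 with B12 and by −0.10 with B9.

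CFI followed the same arrays. It was at 7.74, 7.43 and 7.37 in control, 6.86, 6.98 and 8.10 with B9, 7.24, 6.67, 6.96 and 7.93 with B12, and 7.63, 6.95 and 6.88 with B9 + B12. Its highest values were again those of cows 57 and 52, and each vitamin group overlapped control. Without cow 57 the CFI difference with B9 was −0.59. C3 measured 15.07, 14.40 and 14.75 in control and was highest on the array of cow 57 (15.44), with 14.35 and 14.73 in the other B9 cows, 14.60 to 15.14 with B12, and 14.14 to 15.09 with B9 + B12. Its difference with B9 was 0.10 ± 0.31, and −0.20 without cow 57. Over the 10 C3 probes the differences were 0.034 to 0.27 with B9, −0.022 to 0.19 with B12 and −0.37 to −0.040 with B9 + B12.

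C1S, C6 and C7 were above background on all 13 mammary arrays. C1S was at 10.50 to 11.41, C6 at 6.61 to 7.70 and C7 at 7.54 to 8.41. Their largest differences from control were −0.27 ± 0.14 for C1S with B9 + B12 (−0.12 without cow 32, and −0.53, 0.04 and −0.33 within slides), −0.40 ± 0.24 for C6 with B9 and −0.26 ± 0.20 for C7 with B9 (−0.39 without cow 57 and −0.11 without cow 41). On these brightest probes no group was separate from control. On the C6 probe that was above background on 9 arrays, the B9 and B12 arrays were wholly below control (−0.15 and −0.18), as were 3.15% and 1.61% of all probes.

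**Figure D4:**
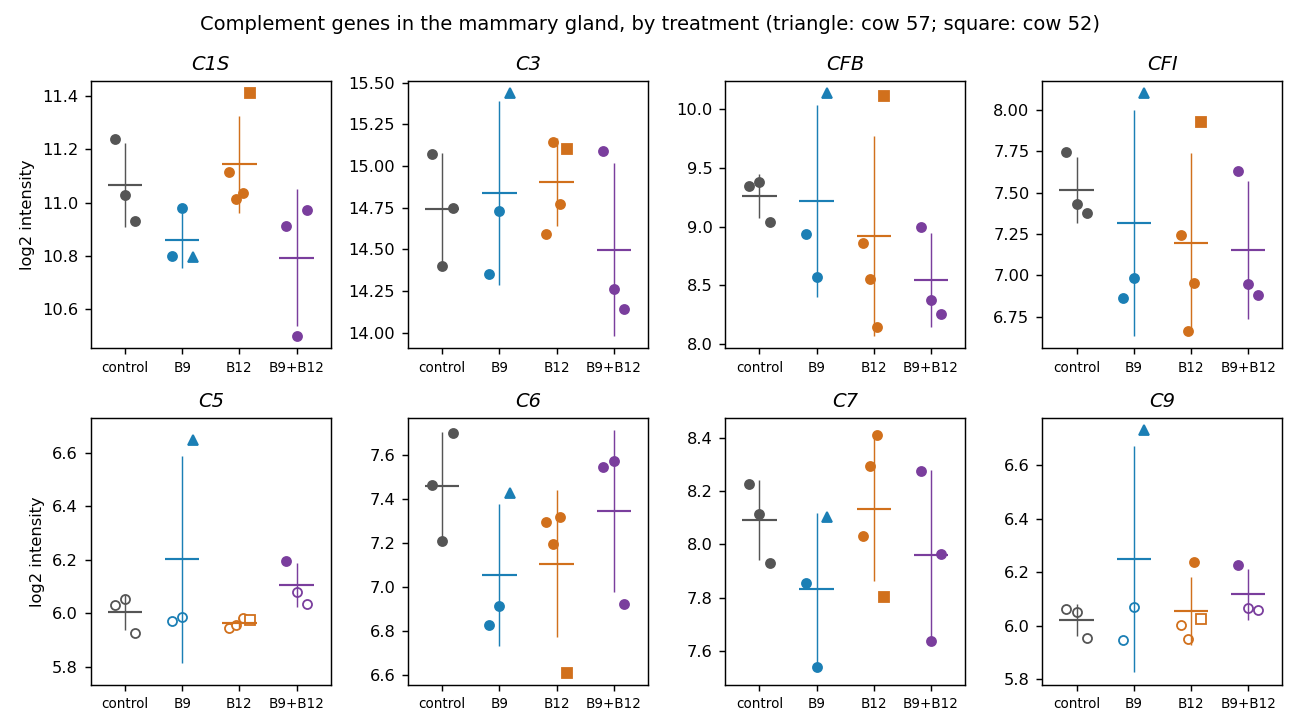
Log2 intensity (vertical axes, each of at least 1 unit or the range of the data) of the brightest probe of 8 complement genes on 13 mammary arrays by treatment, with 1 point per cow, a bar at the mean and a line of ± 1 SD. Open points are not well above background, and cow 57 (triangle) has the highest value of C3, CFB, CFI, C5 and C9.

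C5 and C9 were near background in the mammary gland. The C5 probe brightest there, another than between tissues, was well above background on 2 arrays, those of cow 57 (6.65) and cow 31 (6.20), and measured 5.93 to 6.08 on the other 11. The C9 probe brightest there was well above background on 3 arrays, of cow 57 (6.73), cow 40 (6.24) and cow 31 (6.23). No control array measured either gene, so that differences from it are set against background. With B9, where the array of cow 57 alone measured them, C5 averaged 6.20 against 6.00 in control and C9 6.25 against 6.02, and without cow 57 the differences were −0.025 and −0.015. With B9 + B12, where the array of cow 31 alone measured them, C5 averaged 6.10 and C9 6.12. With B12, C5 was measured on no array and C9 on that of cow 40, with means of 5.97 and 6.05. The signs of these differences changed with the scaling.

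The arrays of cows 57 and 31 also had the highest hepatocyte markers, with means of 8.99 and 8.34 against 7.25 to 7.71 on the other 11. On the array of cow 57, 4 of the 7 hepatocyte markers measured had their highest mammary value, which were ALB at 10.56, the fetuin AHSG at 8.66, the fibrinogen chain FGB at 8.38 and the urea cycle enzyme CPS1 at 7.26. Cow 31 had ALB at 7.92, AHSG at 7.12 and FGB at 6.67, and the apolipoprotein APOA1 at 10.97. Of the complement genes, 5 of 8 were highest on the array of cow 57, and of the other pathway genes 10 of 31, among them C8A (6.68), C8B (6.81), VTN (7.94) and C4BPA (7.07). C1S, C6 and C7 were not highest there. For CFB, the array of cow 52 was as high (10.12) with a hepatocyte mean of 7.71. On that array transthyretin (TTR), another of the 7 markers, had its highest mammary value, 14.23, against 12.95 in cow 31 and 12.62 in cow 57. The part of these markers in the mammary values was not tested.

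**Figure D5:**
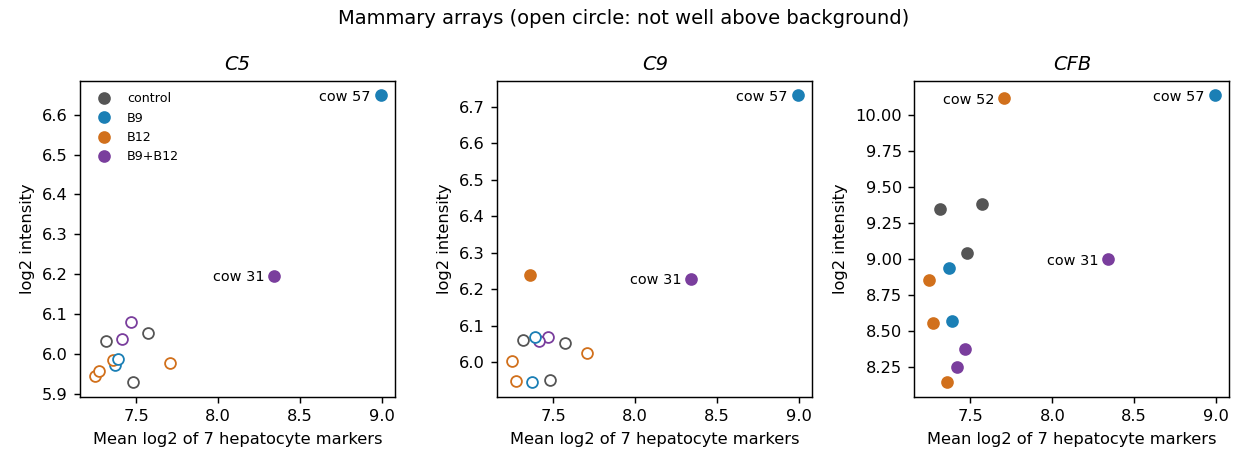
Log2 intensity of C5, C9 and CFB (vertical axes) against the mean log2 intensity of 7 hepatocyte markers (horizontal axes) on 13 mammary arrays, coloured by treatment. Cow 57 has the highest markers (8.99) and the highest C5, C9 and CFB, while cow 52 has a CFB of 10.12 at a marker mean of 7.71.

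None of the 31 other pathway genes was called in the mammary gland. With B9 the lowest were the C1 inhibitor SERPING1 (−0.83), C1QA (−0.37) and C1QB (−0.30), and VTN (0.59) and MASP1 (0.37) were among the highest. With B12 the lowest were C4BPA (−0.40), C1QA (−0.18) and SERPING1 (−0.14), and the highest C4A (0.30), properdin, CFP (0.22), and FCN1 (0.19). With B9 + B12 the lowest were C4A, the substrate of C1S (−1.24, unadjusted p = 0.0251, limma adjusted p = 1.00), clusterin, CLU (−0.67), and SERPING1 (−0.42), and CFD (0.33) and VTN (0.17) were among the highest.

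No complement gene had a vitamin effect that differed between the tissues past the threshold (0% of all probes for each vitamin group). Unadjusted limma p-values under 0.05 were found for 0, 0 and 1 of the 8 genes with B9, B12 and B9 + B12 (2.36%, 1.82% and 4.25% of all probes). The 1 gene was C5, whose B9 + B12 effect was lower in liver than in mammary gland by a difference of −0.77 ± 0.35 (limma adjusted p = 0.835). Liver exceeded mammary gland by 7.34 in cow 32 and 7.91 in cow 38, against 8.20 to 8.47 in the control cows. The C5 probe was not well above background on any mammary array of the control or B9 + B12 cows.

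Relations among the genes were computed on deviations from the group means, in 22 relations. Deviations within a group of 2 to 4 arrays are not independent, so these permutation p-values may be too small, also between tissues. Across 12 liver arrays, C3 and C7 had r = −0.65 (Spearman −0.64, permutation p = 0.0198 and 0.0280, adjusted 0.0725 and 0.191), and r was −0.56 without the 2 arrays farthest from the median. The other 6 genes had r with C3 between −0.02 and 0.49. Across 13 mammary arrays, r with C3 was highest for CFI at 0.69 (Spearman 0.54, permutation p = 0.00942 and 0.0575, adjusted 0.0691 and 0.221), with 0.58 after leaving out the 2 farthest arrays. For C5 it was 0.68 (permutation p = 0.00465, adjusted 0.0511), which fell to 0.40 without them, and C5 was well above background on 2 of these arrays.

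Between liver and mammary gland of the 12 cows, the C5 deviations had r = −0.85 (Spearman −0.62, permutation p = 0.0012 and 0.0348, adjusted 0.0264 and 0.191). It was the only one of the 22 with an adjusted p under 0.05 for r. The C5 probe was not well above background in the mammary gland of 11 of these 12 cows, so that r sets liver values against values near background. Without the 2 cows farthest from the median it was −0.47, so that it rests on those cows, among them cow 57 with the lowest C5 in liver and the highest in mammary gland. A slide held 2 to 4 arrays, too few for a relation within slides.

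Among the genes whose brightest probe was well above background on all arrays of a tissue, those most like C3 by r of deviations were DOCK6 (0.97), HABP4 (0.95), STON2 (0.93), PFKFB2 (0.93) and CYBB (0.91) over 12 liver arrays, out of 8834 genes. Over 13 mammary arrays they were HADHB (0.95), MYO9B (0.94), PALMD (0.94), HARS2 (0.92) and MVP (0.92), out of 8384 genes. The restriction to detected genes was added after the data were seen, and no member of the set was among either 5.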

How the data were processed

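Gene expression was measured on Agilent bovine 4x44K arrays of 1 colour. The authors deposited scanner output made with Agilent Feature Extraction (the labels and the file headers name different versions), with a median intensity for every spot and its surroundings and a processed signal, none of them normalized between arrays. They also deposited a table of log2 values, from which normexp (offset 16) followed by quantiles differed by a median of 0.00186 in liver and 0.000959 in mammary gland. Names alone were joined to the reference, of another build than the array's annotation, and no position is given.

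For the values used here, median intensities were corrected by normexp with an offset of 50. After taking log2, quantile normalization was run per tissue, or over both tissues for comparisons between them. Outlier spots were excluded and repeat spots averaged, and no complement spot was lost or saturated. Of the probes, 53.9% had a current symbol. Groups were compared by limma 3.58.1 (R 4.3.3) in a fit of all arrays of the tissue, or of all 25, adjusted by Benjamini-Hochberg over 43653 probes. Calls required 2-fold or more on a gene's brightest probe together with adjusted p at or under 0.05. Single genes were tested by exact permutation (scipy 1.17.1, two-sided), and relations with 100000 resamples.

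The members, the lists of pathway, hepatocyte, milk secretion, stroma, lymphocyte, interferon and acute-phase genes, and the tests were chosen with earlier results of these data known. Named were all members, the 3 largest rises and falls of the other pathway genes in each vitamin comparison and 5 between tissues, and the 5 genes most like C3, except where a result is not reported here. Each pair of tissues came from the same animal. Deviations from the group means correlated between −0.25 and 0.26 within the 12 pairs, and the cow was a block in an alternative. Other alternatives were 75th percentile scaling of the processed or of the median signal, an offset of 0, the authors' table, a filter on dim probes, no exclusion of outlier spots, the slide as a block, Cyber-T (window 101, confidence 10), the mean of all probes, and each array left out. The fits were tested on simulated data. The number of arrays limits the precision.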

Additional observations from a re-analysis of the deposited data

Results flagged for a closer look

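In the liver of the B12 group, the CFI value of cow 36 (16.33) lay far below those of the other 3 cows (16.84 to 16.91), with a gap of 0.884 of the range of the group, above Dixon's critical value for 4 samples. This was 1 of 16 groups tested over 8 genes and 2 tissues, and chance gives about 1 in 20. Cow 36 also had the highest C7 of the liver arrays (11.14) and the highest milk secretion markers there. The cause was not tested.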

How the results depend on the processing

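The number of complement genes called stayed at 8 between tissues and at 0 in each vitamin comparison and each difference of effects under every alternative, 237 values in all. Among these were the cow as a replicate block (8 called, fixed or random) and each array left out (8 between tissues, 0 otherwise). The filter on dim probes kept any probe well above background on every array of a group. All 8 genes passed it through liver, so it did not test their differences between tissues. Of 554 single values under settings other than leaving out an array, 29 changed sign, and the cause was not tested.

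When the processed signal was divided by each array's 75th percentile, liver B9 gave C1S 0.18, C3 0.23, CFB 0.24 and C6 0.13, liver B12 gave CFB 0.074, liver B9 + B12 gave C3 0.34, CFB 0.53 and C6 0.042, and mammary B12 gave C5 0.014. With the median signal scaled so, liver B9 gave C1S 0.18, C3 0.15, CFB 0.19 and C6 0.13, and liver B9 + B12 gave C3 0.30 and CFB 0.38. In mammary gland it gave CFB 0.0017, C5 −0.074 and C9 −0.036 for B9, C9 −0.14 for B12, and C5 −0.13 and C9 −0.13 for B9 + B12. That scaling put the median of all probes at −0.21, −0.12 and −0.15 in mammary gland. Between tissues, 8157 probes were called (3840 higher and 4317 lower in liver), against 19637 (6204 and 13433) from the scaled processed signal, with a median of −0.48 over all probes, and 18938 (3659 and 15279) from the scaled median signal, with a median of −0.80. The slide as a fixed block gave C1S 0.041 for liver B9, CFI 0.021 and C6 0.015 for liver B12, and CFB 0.41 and CFI 0.14 for mammary B9, for which the random block gave CFB 0.066. The mean of all probes gave C5 0.0019 and C9 −0.016 for mammary B12.

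With 1 array left out, 22 of 496 values changed sign. The ranges were −0.11 to 0.032 (C1S) and −0.28 to 0.11 (C6) for liver B9, and −0.70 to 0.067 (C6) for liver B9 + B12. For mammary B9 they were −0.20 to 0.34 (C3), −0.025 to 0.31 (C5), −0.015 to 0.38 (C9), −0.50 to 0.28 (CFB) and −0.59 to 0.026 (CFI). For mammary B12 they were −0.010 to 0.16 (C1S), −0.0075 to 0.33 (C3), −0.048 to 0.15 (C7) and −0.029 to 0.068 (C9), and for mammary B9 + B12 −0.24 to 0.10 (C6) and −0.29 to 0.030 (C7). Of 22 relations, 1 had an adjusted p under 0.05, 2 with the authors' table and 0 without subtracting group means. With 2 to 4 arrays a group, the spread between cows limits what can be called.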
